A study of Mus musculus with 15 samples.

Results

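The genes described here are the oxygen-sensing machinery built around the hypoxia-inducible factors (HIFs) and a set of genes known to be induced when oxygen is low. They were chosen by symbol as 42 of the 35142 genes to which the transcripts of the series could be assigned, 10 of them regulators of HIF and 32 of them targets. The series holds bulk RNA-seq of 15 cultures of dissociated cerebellar cells from wild-type C57BL/6 mouse pups, taken at postnatal day 0 to 4 (P0-P4) and kept in Neurobasal Plus medium. Of these, 5 were left unstimulated, 5 received recombinant IL-12p70 of the mouse at 30 ng/ml and 5 at 100 ng/ml, starting at day 14 in vitro, for 18 hours. The design asks which genes respond to the cytokine in neural cells and whether the higher concentration does more than the lower one. No oxygen level was varied, so the HIF genes were read at the oxygen level of these cultures, which is not given in the sources used here. Nothing in the labels ties a culture to a litter or a preparation, so the spread between cultures may be technical.

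As background, HIF is a pair of proteins made of an alpha subunit (HIF-1α from *Hif1a*, HIF-2α from *Epas1*, HIF-3α from *Hif3a*) and the constant partner ARNT. In oxygenated cells the prolyl hydroxylases PHD2, PHD1 and PHD3 (from *Egln1*, *Egln2* and *Egln3*) mark the alpha subunit, the von Hippel-Lindau protein (*Vhl*) then leads it to degradation, and the asparaginyl hydroxylase FIH (*Hif1an*) blocks its use of the coactivators p300 and CBP. HIF is thus controlled mainly at the level of the protein, which RNA-seq does not measure, and its activity is commonly read from its target transcripts. These raise glucose uptake and lactate export, hold pyruvate back from mitochondria, modify collagen and trigger the removal of mitochondria, and they include *Egln3* and *Egln1* themselves, which thereby close a feedback loop.

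The 15 cultures had 25746096 to 38435850 reads assigned to genes, and 15360 genes passed the filter on low counts. Levels are given as CPM, counts relative to library size, after scaling with the trimmed mean of M values (TMM), which compare cultures for 1 gene, and as TPM, which also divide by transcript length, where genes are compared with each other. Fold changes, their 95% intervals and the false discovery rate (FDR) come from edgeR's quasi-likelihood test over all genes, and a gene is said to have risen or fallen at an FDR under 0.05. Although the labels call the cells neurons, summed marker levels in unstimulated cultures were 9354 to 13153 TPM for 15 microglia markers, 6590 to 9736 TPM for 12 markers of the oligodendrocyte lineage, 3564 to 4068 TPM for 11 astrocyte markers and 291 to 366 TPM for 15 cerebellar neuron markers. The Purkinje cell marker *Pcp2* had at most 3 reads in any culture, but 14 of the 15 neuron markers passed the filter on low counts. The endothelial marker *Cldn5* was at 0 in all cultures, but 5 of 8 endothelial markers passed. The 8 summed to 24.3 to 34.9 TPM in unstimulated cultures. In such mixed cultures, fewer cells of a type and less RNA per cell cannot be told apart. The counts over all genes moved with single cultures. At 100 ng/ml, where 896 genes rose and 604 fell, they were 1518 and 1414 without replicate 2 of that group, and 591 to 612 and 337 to 355 without unstimulated replicate 1 or 5 or 100 ng/ml replicate 1 or 3. At 30 ng/ml, where 639 rose and 570 fell, they were 395 to 442 and 278 to 356 without unstimulated replicate 3 or 4 or 30 ng/ml replicate 1 or 5. They were 747 and 805 without unstimulated replicate 2, and 900 and 768 without 100 ng/ml replicate 2.

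Many targets of HIF fell under IL-12, while most of its regulators were not called. At 100 ng/ml, 2 of the 9 regulators tested fell and 0 rose, and 13 of the 32 targets fell and 1 rose. Over all genes, 9.77% were called at this concentration, 3.93% as fallen and 5.83% as risen. At 30 ng/ml, 1 of 9 regulators fell and 0 rose, and again 13 of 32 targets fell and 1 rose, where 7.87% of all genes were called, 3.71% as fallen and 4.16% as risen. The fallen targets were thus 40.6% of the targets at each concentration. At both concentrations they include *Ankrd37*, which passed the low-count filter through unstimulated cultures alone. It could hardly have been called as risen, so it adds little to these counts. The median log2 fold change of the targets was -0.18 at the higher and -0.14 at the lower concentration, that of the regulators -0.09 and -0.04, and that of all genes -0.0038 and 0.00014. No regulator rose at an unadjusted p under 0.05 or with DESeq2 at either concentration. Both comparisons use the same unstimulated cultures and are therefore not independent of each other.

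In total, 17 members fell at 1 or both concentrations, of which 12 fell at both: *Egln3* among the regulators and *Slc2a1*, *Slc16a3*, *Pdk1*, *Ak4*, *P4ha1*, *Bnip3*, *Bnip3l*, *Ero1a*, *Kdm3a*, *Mxi1* and *Ankrd37* among the targets. Of the rest, *Egln1*, *Gys1* and *Wsb1* fell at 100 ng/ml, *P4ha2* and *Car9* at 30 ng/ml, and 2 members rose, *Pfkfb4* at 100 ng/ml and *Gbe1* at 30 ng/ml. The other 22 members tested were called in neither comparison. *Hif3a* alone was too low to test. A fall at one concentration and not at the other is not by itself a difference between the concentrations, and none of the 41 members passed the test of 100 against 30 ng/ml.

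**Figure D1:**
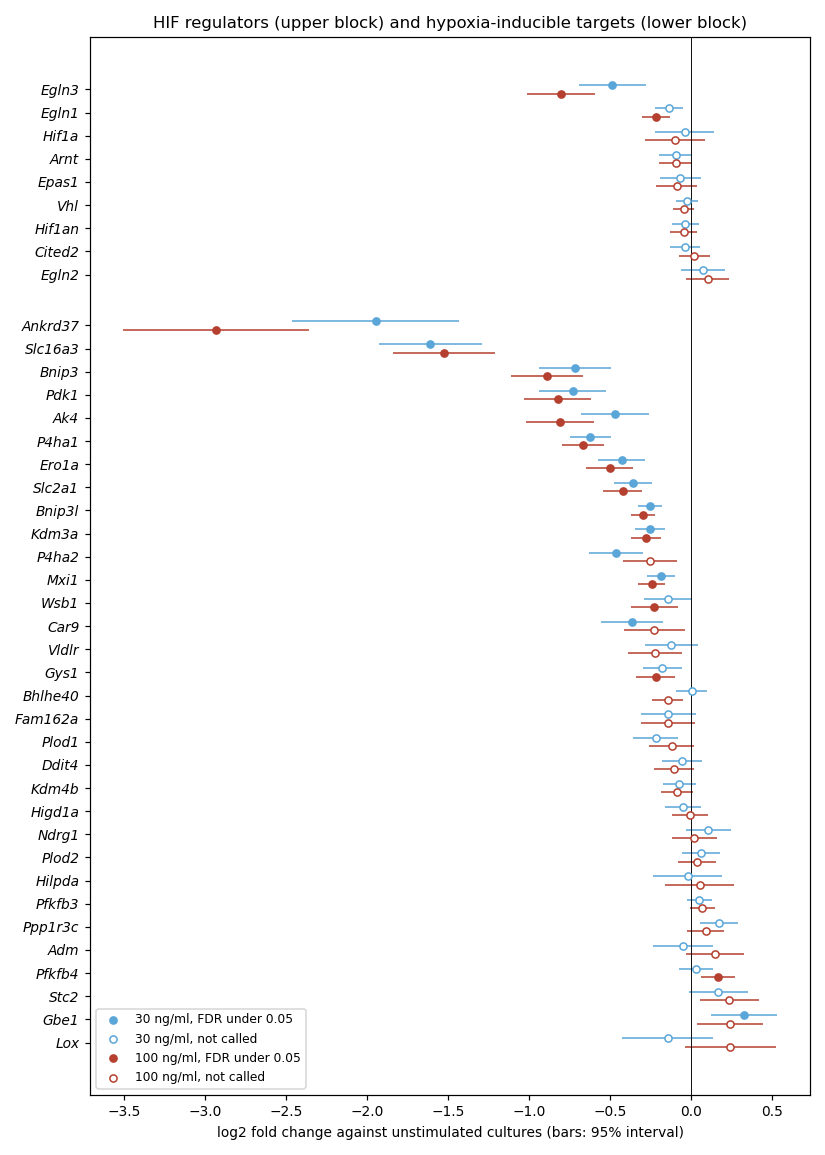
Log2 fold change of each tested member against unstimulated cultures at 30 ng/ml (blue) and 100 ng/ml (red), with 95% intervals as bars; filled points passed an FDR of 0.05. Among the 9 regulators (upper block) only *Egln3* and *Egln1* have filled points, while the targets (lower block) run from -2.93 for *Ankrd37* to 0.24 for *Lox* at 100 ng/ml. *Ankrd37* passed the low-count filter through unstimulated cultures alone.

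At the level of DNA, promoters of the members were compared by the letters HIF is known to recognise. The core of that element was searched as ACGTG or GCGTG on either strand, in windows of 300 bases (250 before to 50 after the start of transcription) from RefSeq on GRCm38.p6. ACGTG is also part of the E-box CACGTG, which other factors bind. Of the 42 members, 35 had a window, while *Kdm4b*, *Bhlhe40*, *Plod2*, *Bnip3l*, *Epas1*, *Ndrg1* and *Lox* had none. The core was present in 37 of 48 windows of the members (77.1%) and in 43.8% of all 32851 windows, and the median GC content was 64.3% in the members and 52.7% in all windows. It was present in 73.9% of 23 windows of targets that fell, in 80.0% of 15 windows of targets that did not fall and in 80.0% of 10 windows of regulators. Some genes have several windows, and the order differs when genes are counted. A core was then present in 13 of 14 targets that fell, 10 of 12 that did not fall and 7 of 9 regulators. Over all genes with a window it was present in 12628 of 27025. These shares are given without a test.

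Stretches of 60 bases around the cores are shown for 4 members that fell at both concentrations and for 3 that were called in neither, because both kinds hold the same core. They are written 5′ to 3′ on the strand of the gene, with the core in capitals on whichever strand it lies. In GRCm39, where each stretch was found once and outside annotated exons, they lie at chr7:138511312-138511371 (minus strand) for *Bnip3*, chr10:59158945-59159004 (plus) for *P4ha1*, chr8:46453010-46453069 (minus) for *Ankrd37* and chr12:54250851-54250910 (minus) for *Egln3*. Those of the uncalled members lie at chr12:73954478-73954537 (plus) for *Hif1a*, chr10:17598795-17598854 (plus) for *Cited2* and chr19:36714178-36714237 (minus) for *Ppp1r3c*. The stretches of *Ankrd37* and *Hif1a* are inside the annotated span of their own genes, in introns of longer transcripts.
Bnip3: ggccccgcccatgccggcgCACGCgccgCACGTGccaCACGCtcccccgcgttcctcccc
P4ha1: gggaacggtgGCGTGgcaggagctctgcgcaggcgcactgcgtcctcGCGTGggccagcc
Ankrd37: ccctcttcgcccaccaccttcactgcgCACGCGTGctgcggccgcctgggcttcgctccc
Egln3: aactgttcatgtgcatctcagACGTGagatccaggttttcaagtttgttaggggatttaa
Hif1a: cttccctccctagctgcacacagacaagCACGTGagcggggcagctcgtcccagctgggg
Cited2: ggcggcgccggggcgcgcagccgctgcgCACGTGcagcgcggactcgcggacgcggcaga
Ppp1r3c: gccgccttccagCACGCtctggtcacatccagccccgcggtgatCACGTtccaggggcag

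Of the subunits of HIF among the members, *Hif1a* had the highest level per length in unstimulated cultures, 77.1 ± 2.80 TPM (SD, n = 5), followed by *Epas1* with 55.2 ± 10.4 TPM and *Arnt* with 24.8 ± 2.30 TPM. *Hif1a*, at chr12:73948149-73996321, stood at 213, 215, 222, 215 and 217 CPM in the unstimulated cultures, at 209.7, 225, 229, 194 and 197 CPM with 30 ng/ml and at 161, 258, 184, 207 and 203 CPM with 100 ng/ml. The unstimulated values lay close together and those at 100 ng/ml spread to both sides of them, with replicate 2 on top. The change was a log2 fold change of -0.04 (FDR 0.847) at 30 ng/ml and a log2 fold change of -0.10 (FDR 0.527) at 100 ng/ml, with a 95% interval of -0.28 to 0.09 at the latter. Without replicate 2 at 100 ng/ml, *Hif1a* had a log2 fold change of -0.20 and an FDR of 0.0448, so its standing below the threshold of a call rests on that culture.

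*Epas1*, best known for its role in endothelium, showed 164, 145, 164, 138 and 159.8 CPM unstimulated, 166, 139, 148, 150.3 and 133 CPM with 30 ng/ml and 145, 137, 147, 145 and 152 CPM with 100 ng/ml. The groups overlapped throughout, with a log2 fold change of -0.07 (FDR 0.569) and a log2 fold change of -0.09 (FDR 0.4). For *Arnt*, the partner that the alpha subunits share, the cultures held 54.7, 49.7, 55.4, 59.9 and 59.00 CPM unstimulated, 49.5, 53.7, 51.7, 51.9 and 54.4 CPM at 30 ng/ml and 50.5, 51.4, 53.2, 52.8 and 53.3 CPM at 100 ng/ml. These too overlapped, with a log2 fold change of -0.09 (FDR 0.259) and a log2 fold change of -0.09 (FDR 0.228), and intervals of -0.19 to 0.0069 and -0.19 to 0.0068. *Hif3a*, whose short forms restrain the other subunits, had 3 to 12 reads per culture, 0.0712 ± 0.0157 TPM unstimulated, and no test was made.

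Among the enzymes that sense oxygen, *Egln3* gave the clearest response. This gene at chr12:54225767-54250673 encodes PHD3, the hydroxylase most strongly induced by HIF. Its unstimulated cultures held 46.95, 41.5, 40.5, 43.8 and 45.5 CPM, those with 30 ng/ml 26.8, 28.3, 27.4, 40.5 and 32.95 CPM and those with 100 ng/ml 21.6, 23.6, 28.97, 25.6 and 25.6 CPM. All 5 cultures at 100 ng/ml lay below all unstimulated ones, and at 30 ng/ml only replicate 4, at 40.5 CPM, reached the lowest of them. It fell by 0.48 on the log2 scale at 30 ng/ml (FDR 0.00666) and by 0.80 at 100 ng/ml (FDR 9.2e-05), and its level per length went from 26.7 ± 2.30 to 15.2 ± 1.76 TPM. Between the concentrations it differed by a log2 fold change of -0.32 (FDR 0.202), an interval of -0.53 to -0.10 that did not pass after adjustment.

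*Egln1*, encoding PHD2, the main hydroxylase of HIF-1α in oxygenated cells, moved in the same direction by less. It lies at chr8:125635308-125676865. Its values were 94.97, 85.2, 86.9, 87.9 and 88.2 CPM unstimulated, 78.2, 78.7, 81.2, 86.3 and 79.9 CPM at 30 ng/ml and 74.7, 73.6, 79.5, 78.5 and 76.1 CPM at 100 ng/ml. The cultures at 100 ng/ml were all below the unstimulated ones, and those at 30 ng/ml overlapped them through replicate 4 alone. It fell by 0.21 at 100 ng/ml (FDR 0.00328), and its change of -0.13 in log2 at 30 ng/ml just missed the threshold (FDR 0.0535). It passed at 30 ng/ml in 6 of 24 alternative settings, among them without replicate 2 of the unstimulated, replicate 4 of the 30 ng/ml or replicate 2 of the 100 ng/ml cultures (FDR 0.0353 to 0.039).

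*Egln2*, which encodes PHD1 and is not usually induced by low oxygen, leaned the other way. Its cultures held 54.1, 58.3, 59.6, 60.3 and 59.2 CPM unstimulated, 59.7, 56.3, 62.95, 64.1 and 63.96 CPM at 30 ng/ml and 69.1, 51.6, 64.7, 64.8 and 62.4 CPM at 100 ng/ml. Replicate 2 at 100 ng/ml was the lowest of all 15 and the remaining 4 at that concentration were above every unstimulated culture. With all cultures the change was a log2 fold change of 0.08 (FDR 0.525) and a log2 fold change of 0.10 (FDR 0.324), and without that replicate it was 0.16 at 100 ng/ml with an FDR of 0.0231. *Hif1a* and *Egln2* were the only regulators whose call at 100 ng/ml changed when a culture was left out, in both cases that same culture.

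*Vhl*, *Hif1an* and *Cited2* were not called and had narrow intervals. *Vhl* held 74.3, 74.4, 75.8, 75.5 and 77.2 CPM unstimulated, 76.1, 73.5, 75.2, 73.2 and 72.9 CPM at 30 ng/ml and 72.8, 74.6, 72.03, 73.7 and 72.6 CPM at 100 ng/ml, with a log2 fold change of -0.04 (FDR 0.397) at the higher concentration and an interval of -0.11 to 0.02. *Hif1an* held 52.9, 51.6, 49.9, 51.4 and 52.5 CPM, 49.9, 50.3, 48.7, 50.5 and 53.2 CPM and 46.3, 50.4, 52.2, 50.3 and 51.6 CPM in the same order, with a log2 fold change of -0.04 (FDR 0.538) and an interval of -0.13 to 0.04. *Cited2*, itself a target of HIF that competes with it for p300 and CBP, held 21.9, 23.2, 22.6, 23.9 and 22.8 CPM, 22.02, 21.5, 24.2, 21.7 and 22.3 CPM and 22.4, 24.1, 22.97, 23.9 and 22.7 CPM, with a log2 fold change of 0.02 (FDR 0.799) and an interval of -0.07 to 0.12. None of these 3 intervals reaches the -0.24 of *Mxi1*, the smallest fall at 100 ng/ml among the targets that fell at both concentrations.

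**Figure D2:**
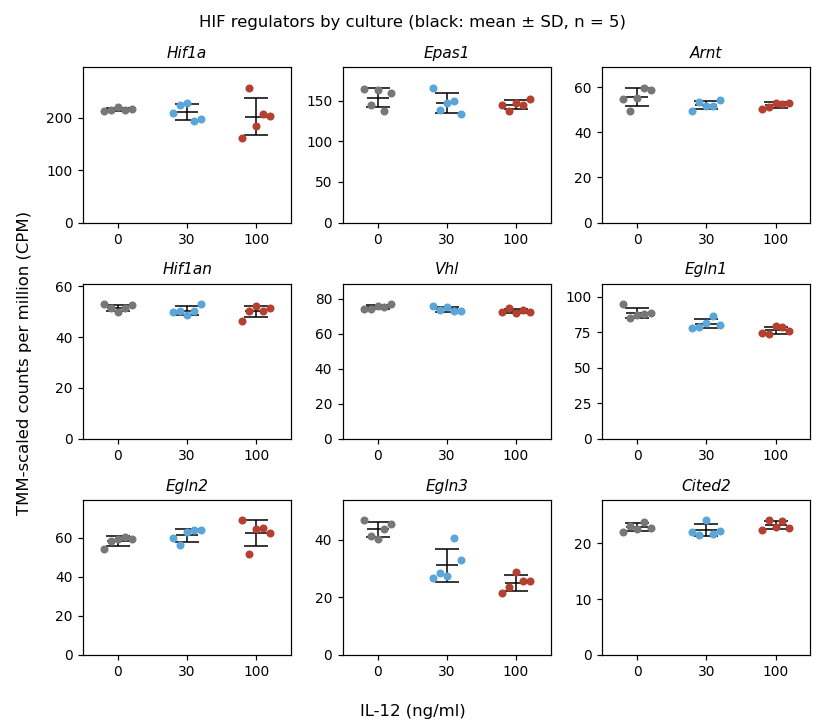
CPM of the 9 tested regulators in each culture (points) by IL-12 concentration, with mean ± SD of 5 cultures in black. *Egln3* goes from a mean of 43.7 to 25.0 CPM, while *Vhl* stays between 72.0 and 77.2 CPM in all 15 cultures and *Hif1a* spreads from 161 to 258 CPM at 100 ng/ml.

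Around these regulators, 14 further genes of the HIF machinery were listed, among them the partners of VHL in its ubiquitin ligase, the coactivators and the chaperone HSP90. Over all genes, edgeR's quasi-likelihood test called 9.77% at 100 ng/ml and 7.87% at 30 ng/ml. Among these 14, neither concentration gave a call with that test, DESeq2 or edgeR's likelihood-ratio test. At an unadjusted p under 0.05, 0 rose and 2 fell at 100 ng/ml and 2 rose and 0 fell at 30 ng/ml. Their median log2 fold change was -0.02 at the higher and -0.0034 at the lower concentration. The smallest FDR at 100 ng/ml belonged to *Siah2*, a ligase that degrades PHD proteins, with 13.7 ± 0.416 CPM (SD, n = 5) unstimulated, 12.3 ± 0.511 CPM at 100 ng/ml and a log2 fold change of -0.15 (FDR 0.0903).

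The largest group by role was the 9 targets that serve sugar use and energy. Of these, 5 had fallen and 1 had risen at 100 ng/ml, and 4 had fallen and 1 had risen at 30 ng/ml. Over all genes, 3.93% fell and 5.83% rose at 100 ng/ml, and 3.71% fell and 4.16% rose at 30 ng/ml. Those of the group that fell cover the uptake of glucose, the export of lactate and the gate between glycolysis and mitochondria. They also cover the synthesis of glycogen and the balance of adenine nucleotides. *Slc2a1*, at chr4:118965908-118996365, encodes the glucose transporter GLUT1. Its cultures held 147, 150.3, 159, 159 and 159 CPM unstimulated, 121, 123, 119, 127 and 116 CPM at 30 ng/ml and 123, 97.2, 113, 123 and 122 CPM at 100 ng/ml, so that every stimulated culture lay below every unstimulated one. It fell by 0.36 at 30 ng/ml (FDR 0.00112) and by 0.42 at 100 ng/ml (FDR 0.000181).

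*Slc16a3*, at chr11:120838846-120851694, encodes MCT4, the exporter of lactate in glycolytic cells such as astrocytes. Its unstimulated cultures held 67.1, 51.1, 64.1, 64.5 and 65.8 CPM, those with 30 ng/ml 13.01, 19.7, 22.5, 29.5 and 17.8 CPM and those with 100 ng/ml 23.7, 18.00, 19.4, 22.9 and 24.6 CPM. The gap between unstimulated and stimulated cultures was wide, with 51.1 CPM as the lowest unstimulated and 29.5 CPM as the highest stimulated value. It fell by 1.61 (FDR 1.91e-05) and by 1.52 (FDR 6.13e-06) on the log2 scale. Its locus overlaps *Csnk1d* and *Ccdc57* on the opposite strand, and whether counting used strand is not given in the sources used here. Neither neighbour was called, and at 100 ng/ml they had log2 fold changes of -0.04 for *Csnk1d* and -0.12 for *Ccdc57*.

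*Pdk1*, at chr2:71703488-71734202, encodes the kinase that shuts pyruvate dehydrogenase. It stood at 82.4, 58.2, 68.3, 69.98 and 73.4 CPM unstimulated, 36.05, 42.99, 40.01, 55.00 and 38.7 CPM at 30 ng/ml and 38.3, 40.2, 37.7, 40.2 and 43.2 CPM at 100 ng/ml, with no overlap between unstimulated and stimulated cultures. It fell by 0.73 (FDR 0.000469) and by 0.82 (FDR 6.94e-05). *Ak4*, at chr4:101276265-101324968, encodes a mitochondrial adenylate kinase. It held 30.6, 23.8, 24.4, 23.9 and 29.6 CPM unstimulated, 16.9, 18.2, 18.4, 24.8 and 17.3 CPM at 30 ng/ml and 14.1, 15.96, 14.7, 14.6 and 16.2 CPM at 100 ng/ml. Replicate 4 at 30 ng/ml lay inside the unstimulated range, and all 5 cultures at 100 ng/ml lay below the other 10. *Ak4* fell by 0.47 (FDR 0.00794) and by 0.81 (FDR 8.65e-05), and the difference between the concentrations was a log2 fold change of -0.34 (FDR 0.17).

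The enzymes of glycogen went in different directions. *Gys1*, the glycogen synthase of most tissues, held 44.5, 39.3, 43.5, 43.6 and 43.8 CPM unstimulated, 35.2, 37.7, 36.3, 42.9 and 38.05 CPM at 30 ng/ml and 38.00, 34.2, 36.3, 35.9 and 40.3 CPM at 100 ng/ml. It fell by 0.22 at 100 ng/ml (FDR 0.0238), a call lost when replicate 1 or 5 of the unstimulated or replicate 3 or 4 of the 100 ng/ml cultures was left out (FDR 0.0534 to 0.0619) and with an offset for transcript length (FDR 0.289). *Gbe1*, the branching enzyme, held 22.3, 26.1, 22.6, 23.2 and 17.9 CPM, 31.3, 29.8, 26.6, 25.1 and 28.2 CPM and 26.6, 30.9, 21.1, 26.8 and 27.1 CPM in the same order. It rose by 0.33 at 30 ng/ml (FDR 0.0433), and it lost the call in 10 of the 15 fits with 1 culture left out (FDR 0.0532 to 0.107) and with the offset for transcript length (FDR 0.215). *Ppp1r3c*, which targets a phosphatase to glycogen, was not called, with a log2 fold change of 0.18 (FDR 0.0602) and a log2 fold change of 0.09 (FDR 0.318).

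Of the bifunctional enzymes that set fructose 2,6-bisphosphate, the activator of glycolysis, *Pfkfb4* was the target that rose at 100 ng/ml. Its cultures held 24.95, 23.7, 25.3, 24.3 and 24.5 CPM unstimulated, 23.1, 24.2, 27.02, 25.3 and 26.05 CPM at 30 ng/ml and 27.7, 26.2, 26.4, 30.1 and 27.5 CPM at 100 ng/ml. All 5 at 100 ng/ml lay above all unstimulated ones, where 4.34% of all genes did so, by a log2 fold change of 0.17 (FDR 0.0436). That call was lost in 10 of the 15 fits with 1 culture left out (FDR 0.0518 to 0.111), including each that dropped an unstimulated culture, and with other size factors, without the low-count filter or with only the compared groups (FDR 0.0511, 0.0841 and 0.0639). *Pfkfb3*, the form with the strongest kinase activity, was not called, with a log2 fold change of 0.05 (FDR 0.437) and a log2 fold change of 0.07 (FDR 0.235).

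Among the matrix enzymes, the collagen prolyl 4-hydroxylases fell at 1 or both concentrations and the lysine-modifying enzymes were not called. *P4ha1*, at chr10:59159092-59209126, encodes a catalytic subunit of prolyl 4-hydroxylase and had the smallest FDR of all members at 100 ng/ml. It held 145, 135, 147, 159 and 148 CPM unstimulated, 86.1, 94.2, 93.2, 114 and 90.6 CPM at 30 ng/ml and 92.8, 90.96, 91.3, 93.1 and 94.3 CPM at 100 ng/ml, and no stimulated culture reached the unstimulated range. It fell by 0.62 (FDR 2.49e-05) and by 0.67 (FDR 2.74e-06). *P4ha2*, the second catalytic subunit, held 16.4, 14.2, 16.3, 17.1 and 13.9 CPM, 10.4, 10.8, 9.92, 12.5 and 13.1 CPM and 14.1, 13.4, 12.6, 12.7 and 12.6 CPM in that order. It fell by 0.46 at 30 ng/ml (FDR 0.00226) and just missed the threshold at 100 ng/ml with a log2 fold change of -0.25 (FDR 0.0514). *Plod1* and *Plod2*, which hydroxylate lysines in collagen, and *Lox*, which cross-links them, had FDRs of 0.0519, 0.569 and 0.58 at 30 ng/ml and of 0.277, 0.723 and 0.269 at 100 ng/ml. *Plod1* thus just missed the threshold at 30 ng/ml, with a log2 fold change of -0.22 and an interval of -0.36 to -0.08.

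The pair of mitophagy receptors fell together. *Bnip3*, at chr7:138490690-138511253, stood at 104, 73.2, 70.9, 78.1 and 82.2 CPM unstimulated, 47.5, 47.8, 44.1, 64.8 and 44.7 CPM at 30 ng/ml and 44.9, 47.1, 41.4, 44.00 and 43.5 CPM at 100 ng/ml. Unstimulated replicate 1 was far above its group and 30 ng/ml replicate 4 above its own, but even that value stayed under the lowest unstimulated one. *Bnip3* fell by 0.72 (FDR 0.000664) and by 0.89 (FDR 5.86e-05). *Bnip3l*, at chr14:67222678-67246356, encodes NIX. Summed over all transcripts it had 266 ± 21.5 TPM against 95.3 ± 19.1 TPM for *Bnip3* in unstimulated cultures. Much of this lay in transcripts without a defined coding sequence, with means of 89.9, 83.5 and 39.6 TPM. The coding transcript Bnip3l-201 had 52.4 TPM, and the coding Bnip3-201 and Bnip3-203 had 69.5 and 21.9 TPM. The order of the pair thus depends on the transcripts counted. *Bnip3l* held 170.1, 164, 161, 168 and 165 CPM unstimulated, 137, 142, 137, 141 and 139 CPM at 30 ng/ml and 133, 139.8, 127, 141 and 135 CPM at 100 ng/ml, and all stimulated cultures lay below all unstimulated ones. It fell by 0.25 (FDR 0.000569) and by 0.30 (FDR 7.74e-05). The mitochondrial proteins of *Higd1a* and *Fam162a* had log2 fold changes of -0.0063 and -0.14 at 100 ng/ml and were not called.

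In the group of stress and protein folding, *Ero1a*, at chr14:45520541-45556228, which passes electrons from new disulfide bonds to oxygen in the endoplasmic reticulum, fell at both concentrations. Its values were 73.7, 60.6, 66.4, 64.96 and 68.7 CPM unstimulated, 45.1, 50.8, 52.8, 54.7 and 45.7 CPM at 30 ng/ml and 41.7, 53.1, 44.9, 49.1 and 47.8 CPM at 100 ng/ml, without overlap between unstimulated and stimulated cultures. It fell by 0.43 (FDR 0.0014) and by 0.50 (FDR 0.000248). *Ddit4*, the inhibitor of mTORC1 also known as REDD1, and *Ndrg1*, a stress gene that HIF and other factors induce, were not called, with log2 fold changes of -0.10 and 0.02 at 100 ng/ml.

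Of the genes acting on chromatin and transcription, *Kdm3a* and *Mxi1* fell at both concentrations. *Kdm3a*, at chr6:71565956-71610472, encodes a demethylase of histone H3 lysine 9 that itself needs oxygen. It held 77.4, 74.5, 73.2, 75.3 and 78.4 CPM unstimulated, 61.7, 66.00, 59.7, 62.9 and 67.6 CPM at 30 ng/ml and 59.7, 66.7, 59.6, 63.3 and 64.2 CPM at 100 ng/ml, and fell by 0.25 (FDR 0.00219) and by 0.27 (FDR 0.00083). *Mxi1*, at chr19:53298852-53364241, encodes an antagonist of MYC. It held 65.03, 62.96, 65.2, 62.3 and 63.7 CPM unstimulated, 58.9, 54.3, 54.7, 58.4 and 54.8 CPM at 30 ng/ml and 52.4, 53.6, 51.00, 56.98 and 55.8 CPM at 100 ng/ml, and fell by 0.18 (FDR 0.0102) and by 0.24 (FDR 0.00114). For both genes every stimulated culture lay below every unstimulated one, although the shifts were small. The repressor *Bhlhe40* just missed the threshold at 100 ng/ml with a log2 fold change of -0.14 (FDR 0.0513), against a log2 fold change of 0.0047 at 30 ng/ml. *Kdm4b*, another histone demethylase, had a log2 fold change of -0.09 (FDR 0.272).

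*Ankrd37*, at chr8:46449939-46458744, is a small ankyrin-repeat gene known as a sensitive target of HIF. It showed the largest fold change of the members tested, on the fewest reads, 5 to 111 per culture. Only unstimulated cultures brought it past the low-count filter, as no stimulated culture reached 1 CPM. A gene that enters the test in this way can hardly be called as risen, which limits what its fall shows. It held 2.90, 1.43, 2.19, 1.65 and 2.18 CPM unstimulated, 0.429, 0.417, 0.599, 0.79 and 0.46 CPM at 30 ng/ml and 0.439, 0.274, 0.227, 0.269 and 0.146 CPM at 100 ng/ml, and no stimulated culture reached the unstimulated range. It fell by 1.95 (FDR 0.000295) and by 2.93 (FDR 3.14e-06) on the log2 scale, with intervals of -2.46 to -1.43 and -3.51 to -2.36. The difference between the concentrations was a log2 fold change of -0.99 (FDR 0.211), with an interval of -1.67 to -0.31. *Ufsp2* and *Lrp2bp*, on the opposite strand, overlap it with more reads, and neither was called, with -0.09 and -0.20 as their log2 fold changes at 100 ng/ml.

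*Wsb1*, which encodes a subunit of a ubiquitin ligase that acts on VHL, held 76.5, 73.6, 70.3, 82.5 and 72.04 CPM unstimulated, 65.5, 67.6, 67.2, 65.9 and 73.9 CPM at 30 ng/ml and 58.8, 78.5, 59.4, 62.4 and 61.9 CPM at 100 ng/ml. Replicate 2 at 100 ng/ml, at 78.5 CPM, was inside the unstimulated range, while the next culture of its group was at 62.4 CPM. *Wsb1* fell by 0.23 at 100 ng/ml (FDR 0.0475), a call that was lost in 12 of the 15 fits with 1 culture left out (FDR 0.0544 to 0.118). It was also lost with library size alone, without the low-count filter, with only the compared groups or with the offset for transcript length (FDR 0.0522 to 0.097). Without replicate 2 at 100 ng/ml it fell by 0.31 (FDR 0.000866).

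Among the secreted factors and the pH enzyme, *Car9* was the only one of 3 to be called, and only at 30 ng/ml. *Car9*, the carbonic anhydrase IX that acidifies the outside of hypoxic cells, held 16.9, 16.4, 16.6, 17.4 and 17.1 CPM unstimulated, 14.5, 14.2, 12.7, 11.5 and 12.8 CPM at 30 ng/ml and 15.9, 12.1, 11.7, 16.1 and 16.3 CPM at 100 ng/ml. All stimulated cultures of both concentrations lay below all unstimulated ones, and at 100 ng/ml replicates 2 and 3 were well under the other cultures of the group. *Car9* fell by 0.36 at 30 ng/ml (FDR 0.0209), a call lost without replicate 4 (FDR 0.0557) or replicate 5 (FDR 0.0518) at that concentration and with the offset for transcript length (FDR 0.523), and at 100 ng/ml it had a log2 fold change of -0.22 (FDR 0.126). *Adm*, the vasodilator peptide adrenomedullin, had a log2 fold change of 0.15 (FDR 0.289), and *Stc2*, the secreted glycoprotein stanniocalcin 2, had a log2 fold change of 0.24 (FDR 0.091). The lipid genes *Hilpda*, an inhibitor of fat breakdown, and *Vldlr*, a lipoprotein receptor, were not called either, with log2 fold changes of 0.05 and -0.22 at 100 ng/ml.

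**Figure D3:**
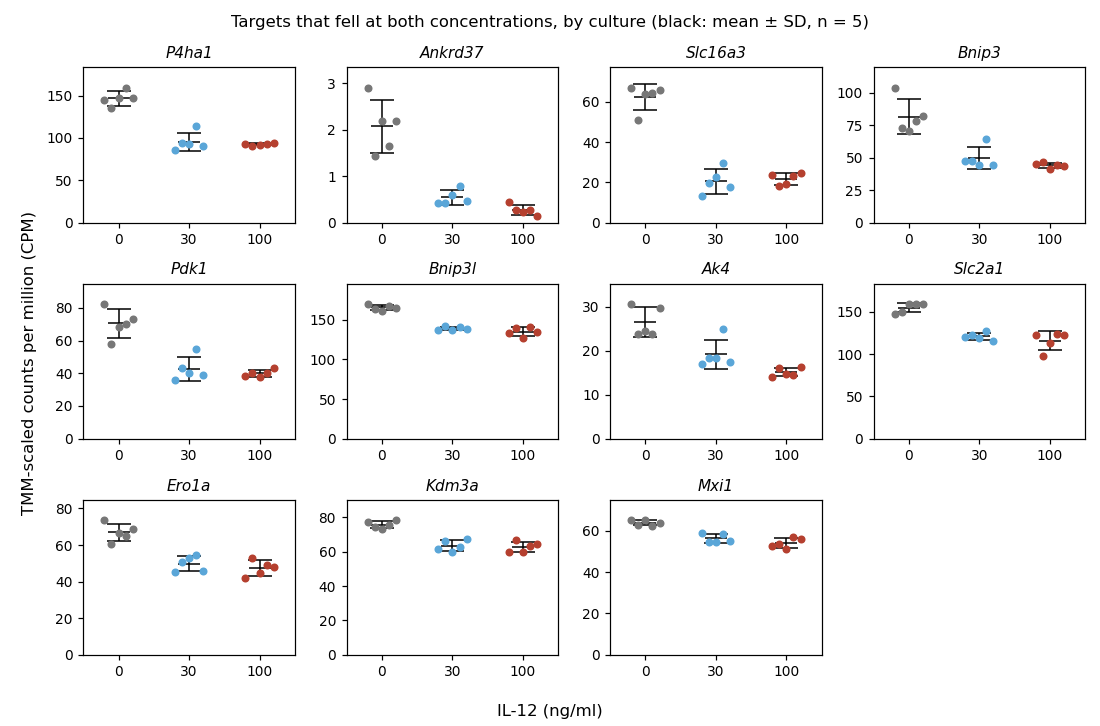
CPM of the 11 targets that fell at both concentrations in each culture (points) by IL-12 concentration, ordered by FDR at 100 ng/ml, with mean ± SD of 5 cultures in black. Stimulated cultures lie below the unstimulated ones for every gene but *Ak4*, where 1 culture at 30 ng/ml reached 24.8 CPM, and most of the step is already present at 30 ng/ml.

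Judged by overlap rather than by a model, all 5 cultures at 100 ng/ml lay below all unstimulated ones for 12 of 32 targets and 2 of 9 regulators, and all above for 1 target. Over all genes the shares were 2.84% below and 4.34% above. At 30 ng/ml the same held for 12 targets below and 1 above and for 0 regulators, against 3.46% and 5.44% of all genes. *Ankrd37*, which passed the low-count filter through unstimulated cultures alone, is among the 12 targets below at each concentration. For 10 of the 12 members that fell at both concentrations, all 10 stimulated cultures lay below all unstimulated ones, the exceptions being *Egln3* and *Ak4*. These 12 were chosen by their calls in the same cultures, so this count describes them and is no separate support. Its share over all genes was not computed.

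The higher concentration added little that could be resolved. In the comparison of 100 with 30 ng/ml, 0 members were called by edgeR's quasi-likelihood test, DESeq2 or the likelihood-ratio test, where 0.579% of all genes were called, 0.501% as higher and 0.0781% as lower at 100 ng/ml. With 1 culture left out, the 77 higher genes became 36 to 93 and the 12 lower ones 2 to 58, with 36 and 2 without 30 ng/ml replicate 5 and 89 and 58 without 100 ng/ml replicate 2. At an unadjusted p under 0.05, 4 targets were higher and 3 targets and 1 regulator lower. Of the 12 members that fell at both concentrations, 11 had the more negative log2 fold change at 100 ng/ml, *Slc16a3* being the exception. They were chosen by their calls and measured in the same cultures, so this count is no test of concentration. Its share among all genes that fell at both was not computed. In 1 target, *Ak4*, every culture at 100 ng/ml lay below every culture at 30 ng/ml, where 1.23% of all genes did so. Within the 30 ng/ml group, replicate 4 held the highest value for 9 of these 12 genes, and its mean log2(CPM + 0.5) over the 32 targets, relative to the unstimulated mean, was -0.13, against -0.31 to -0.24 in the other 4 cultures. At 100 ng/ml the same measure lay closer together, from -0.29 to -0.25 in the 5 cultures.

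A further list of 30 hypoxia-inducible genes, mainly glycolytic enzymes, was described in the same way. Over all genes, 3.93% fell and 5.83% rose at 100 ng/ml, and 3.71% fell and 4.16% rose at 30 ng/ml. Of the 30 listed, 12 fell and 3 rose at 100 ng/ml and 13 fell and 3 rose at 30 ng/ml. The median log2 fold change of the list was -0.20 at each concentration. By FDR at 100 ng/ml the leading ones were *Tfrc*, the transferrin receptor, which fell from 118 ± 4.37 to 78.1 ± 8.51 CPM (SD, n = 5; a log2 fold change of -0.60 (FDR 2.23e-05)), and *Angptl4*, a lipase inhibitor, which rose from 1.88 ± 0.301 to 4.98 ± 1.03 CPM (a log2 fold change of 1.40 (FDR 2.55e-05)). *Igfbp3*, a binding protein of insulin-like growth factors, also rose, from 140.5 ± 6.77 to 194 ± 20.3 CPM (a log2 fold change of 0.47 (FDR 0.000137)), and *Tpi1*, triosephosphate isomerase, fell from 399 ± 27.5 to 260.4 ± 19.9 CPM (a log2 fold change of -0.62 (FDR 0.000168)). The list thus held genes moving both ways, with falls the more frequent.

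**Figure D4:**
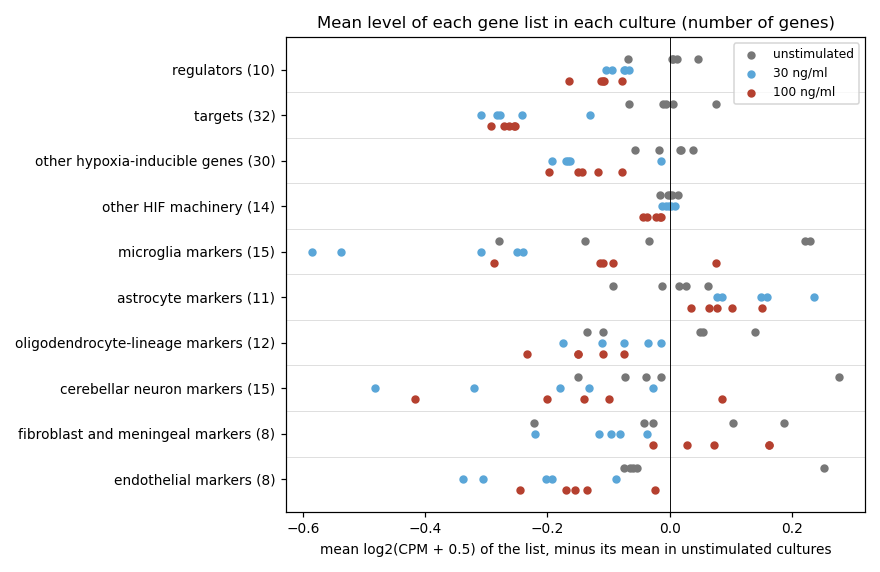
Mean log2(CPM + 0.5) of each gene list in each culture, as the difference from its mean in unstimulated cultures (grey: unstimulated, blue: 30 ng/ml, red: 100 ng/ml). All 10 stimulated cultures lie between -0.13 and -0.31 for the targets, whereas the machinery list stays between -0.04 and 0.01 and the microglia markers are lowest at 30 ng/ml. The targets include *Ankrd37*, which passed the low-count filter through unstimulated cultures alone.

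Some markers of cell types changed as well. For comparison, 3.93% of all genes fell and 5.83% rose at 100 ng/ml, and 3.71% fell and 4.16% rose at 30 ng/ml. Of 15 microglia markers, 10 fell at 30 ng/ml, with a median log2 fold change of -0.42 and summed levels of 7478 to 9351 TPM, and 0 were called at 100 ng/ml by edgeR or DESeq2, 3 having fallen at an unadjusted p under 0.05, with a median of -0.13 and 8921 to 11708 TPM. At 100 ng/ml the log2 fold change was still negative for 13 of the 15. Of 12 markers of the oligodendrocyte lineage, 3 fell at 100 ng/ml and 1 at 30 ng/ml, with summed levels of 5913 to 7134 and 6648 to 8144 TPM. Of 11 astrocyte markers, 1 rose and 1 fell at 100 ng/ml and 3 rose at 30 ng/ml, with 3985 to 4393 and 4248 to 4965 TPM. The 14 cerebellar neuron markers tested gave 1 rise and 1 fall at 100 ng/ml and 2 of each at 30 ng/ml, with medians of -0.24 and -0.49 and summed levels of 328 to 359 and 351 to 404 TPM. Of 7 fibroblast and meningeal markers tested, 2 rose at 100 ng/ml. At 30 ng/ml 0 of them were called by edgeR's quasi-likelihood test or DESeq2, and 1 fell by edgeR's likelihood-ratio test. There, 1 was higher and 2 lower at an unadjusted p under 0.05 in the quasi-likelihood test. Of 5 endothelial markers tested, 1 fell at each concentration. The part of these shifts in the levels of the HIF genes was not tested.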

How the data were processed

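The authors prepared stranded poly(A) libraries. Per the labels, processing used FastQC 0.10.0, STAR 2.7.8a and featureCounts on GRCm39, but the deposited files give, for 121798 transcripts in each culture, estimated counts and TPM values laid out as a pseudoaligner writes them, whose name is not given in the sources used here. The counts per gene that the plan had assumed were therefore made from these estimates.

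Estimated counts were summed by gene with GENCODE release M39 (98.965% of transcripts matched) and rounded. The low-count filter asked for 1 CPM or more in 2 or more cultures, scaling was by TMM, and 15 cultures were fitted in 1 model of 3 groups with edgeR 4.0.16 (R 4.3.3), quasi-likelihood test, Benjamini-Hochberg adjustment over 15360 genes. The biological coefficient of variation was 8%. Intervals are 95% intervals from the fit. DESeq2 1.42.0 and other settings served as alternatives, and the code was tested on simulated data. How reads that fit overlapping genes or near copies were assigned is not given in the sources used here.

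The members and gene lists were chosen with earlier results of these data known. Values by culture are given for the regulators tested and for targets called at either concentration; from further lists at most 4 genes with the smallest FDR at 100 ng/ml are named.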

Additional observations from a re-analysis of the deposited data

Results flagged for a closer look

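Among the 27 members examined by culture, 81 groups of 5 cultures were searched for a highest or lowest culture far from the others of its group, and 7 were found. Chance alone gives such a value in about 1 of 20 groups. In unstimulated replicate 2, *Slc16a3* was at 51.1 CPM where the other cultures had 64.1 to 67.1, and *Gys1* was at 39.3 CPM where they had 43.5 to 44.5. In replicate 4 at 30 ng/ml, *Ak4* was at 24.8 CPM against 16.9 to 18.4 and *Bnip3* at 64.8 CPM against 44.1 to 47.8. *Wsb1* was at 73.9 CPM in replicate 5 at 30 ng/ml, against 65.5 to 67.6, and at 78.5 CPM in replicate 2 at 100 ng/ml, against 58.8 to 62.4. *Cited2* was at 24.2 CPM in replicate 3 at 30 ng/ml, against 21.5 to 22.3.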

How the results depend on the processing

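Of 31 member values past the threshold, 26 stayed past it in all of up to 24 alternatives and none changed sign; the exceptions, *Pfkfb4*, *Gys1* and *Wsb1* at 100 ng/ml and *Gbe1* and *Car9* at 30 ng/ml, lost the call under the settings named beside their values and, for *Pfkfb4* and *Wsb1*, under the replicate block. *Cited2* at 100 ng/ml, not called, turned to -0.0032 with an offset for transcript length. The regulators called at 30 ng/ml were 2 instead of 1 with DESeq2, with 2 under the likelihood-ratio test and 2 with only the groups compared, *Egln1* being the added gene. With 1 culture left out, the calls ranged from 11 to 17 for targets and from 2 to 4 for regulators at 100 ng/ml, from 12 to 17 and from 1 to 2 at 30 ng/ml, and were 0 between the concentrations. The regulators reached 4 without replicate 2 of the 100 ng/ml cultures. Correlations of same-numbered cultures ran from -0.22 to 0.279, with 5 of 15 over 0.1. Those of differently numbered cultures ran from -0.285 to 0.33, with 14 of 60 over 0.1. No clear pairing by number was seen, but correlations this weak cannot settle whether numbers mark shared preparations. With a replicate block, 12 targets and 2 regulators were called at 100 ng/ml, 15 and 1 at 30 ng/ml and 0 between the concentrations, and *Pfkfb4* (FDR 0.065) and *Wsb1* (FDR 0.0575) at 100 ng/ml were not called. *Ankrd37* was not tested when at least 10 counts were required in every culture. Over all genes, calls at 100 ng/ml were 565 risen and 341 fallen with the length offset and 616 and 330 with only the groups compared, against 896 and 604, and at 30 ng/ml library size alone gave 890 and 521 against 639 and 570. The causes of these shifts were not tested. Depth limits *Ankrd37*, *Hif3a*, *Hilpda* and *Stc2* most.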
